A study of Mus musculus with 12 samples.

Results

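The genes of oxidative phosphorylation described here are 90 of the 18193 genes with a probe set of their own on the array. They were taken by symbol: every gene named Nduf, Uqcr, Atp5 or Cox4 to Cox8, together with Sdha, Sdhb, Sdhc and Sdhd. Each gene is represented by the probe set annotated to that symbol alone with the highest mean over 12 arrays. They comprise 34 subunits of complex I, 8 complex I assembly factors with Ndufaf symbols, 4 subunits of complex II, 8 of complex III, 11 genes of complex IV, 17 of complex V and 8 isoforms known mainly from muscle, lung, testis or hypoxic cells. RNA came from spleen B220+ B cells of C57BL/6 mice that carry the transgene Tg(IghelMD4)4Ccg, which gives most B cells a receptor for hen egg lysozyme (HEL). All cells were purified on magnetic beads, cultured in RPMI with 10% FBS and stimulated with anti-CD40, IL21 and HEL, signals chosen to stand in for those of follicular helper T cells. The 6 groups of 2 arrays were control, Jmjd2a and Jmjd2c at day 1 and at day 3, where the Jmjd2a and Jmjd2c groups were treated to deplete these histone demethylases. The labels name the reagent as siRNA in one field and as shRNA virus in another, and both day 3 controls carry the same short description although their titles number them 1 and 2. The titles call the arrays biological replicates without naming separate animals or cultures, so the p-values measure the spread between these arrays, which may be technical.

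Oxidative phosphorylation is carried out by protein complexes of the inner mitochondrial membrane. Complexes I and II take electrons from NADH and succinate, complex III passes them from ubiquinol to cytochrome c, and complex IV passes them to oxygen. Pumping by complexes I, III and IV builds the proton gradient that complex V, the ATP synthase, uses to make ATP. Assembly factors help to build the complexes and are not part of the finished enzyme. Activated B cells grow, divide and change their mitochondria on the way to becoming plasma cells, which makes these genes of interest in this culture.

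The values are the authors' log2 probe set values, and differences are therefore log2 differences. Different probes bind with different strength, so no level of one gene is set against that of another. Of the 90 genes, 86 had a mean above 5.22, the median of all probe set means, and the other 4 were Ndufb4 and 3 of the restricted isoforms. Between the 2 arrays of a group the median SD of these genes was 0.02 to 0.067, against 0.062 to 0.148 over all probe sets. Kdm4a and Kdm4c, the current symbols of Jmjd2a and Jmjd2c, did not pass the test in the arrays labelled with their depletion. Kdm4a on its brighter probe set differed from control by 0.11 ± 0.09 (SE) at day 1 and by -0.12 ± 0.09 at day 3, with adjusted p of 0.62 and 0.36. Kdm4c differed by 0.19 ± 0.12 and by 0.03 ± 0.12, with adjusted p of 0.41 and 0.91. The groups are therefore called by their labels, with no statement on depletion.

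The arrays also differed in markers of other cells. Day 3 control replicate 2 stood apart from the other 11 arrays, with an interquartile range of 3.08 against 3.38 to 3.63, an 18S control signal of 10.73 against 11.73 to 12.73, and a correlation of 0.9887 with its partner where the other groups reached 0.9959 or more. All 10 of 10 macrophage markers were higher at day 1 under each label than in control, and their mean level was 5.46 to 5.49 in day 1 controls, 8.30 to 9.51 in the day 1 labelled arrays, 7.58 to 7.63 in day 3 controls and 6.28 to 6.47 in the day 3 labelled arrays. The 3 proliferation markers Mki67, Top2a and Cdk1 had a mean of 10.38 in both day 1 controls, 10.00 to 10.11 in the day 1 labelled arrays, 11.35 to 11.44 in day 3 controls and 10.58 to 10.70 in the day 3 labelled arrays. The 5 measured B cell markers averaged 9.88 to 9.93, 10.61 to 10.995, 10.13 to 10.21 and 9.94 to 9.96 in the same order. The 4 NK markers averaged 5.17 to 5.32, 6.67 to 7.43, 7.53 to 7.68 and 6.06 to 6.39. The 5 neutrophil markers reached 8.66 and 9.49 on the second arrays of the day 1 Jmjd2a and Jmjd2c groups and stayed between 4.75 and 6.195 on the other 10 arrays. In the order of groups used above, the 5 plasma cell markers averaged 10.02 to 10.04, 10.10 to 10.39, 10.21 to 10.36 and 10.12 to 10.21. They did not move together: in control over time Jchain and Xbp1 rose past the test and Sdc1 fell past it. The 5 T cell markers averaged 5.68 to 5.75, 6.00 to 6.15, 6.065 to 6.11 and 5.81 to 5.96. The 4 erythroid markers averaged 4.24 to 4.33, 5.62 to 6.10, 4.26 to 4.40 and 4.205 to 4.46, and 1 of them was below the median level on every array. The part of these markers in the results was not tested, and in RNA of a whole culture fewer cells of a type and less RNA per cell cannot be told apart.

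In each comparison with control most of the 90 genes were not called, and the calls were mainly lower at day 1 and mainly higher at day 3. At day 1, 13 were lower and 2 higher under the Jmjd2a label, and 21 were lower and 2 higher under the Jmjd2c label. At day 3, 26 were higher and 5 lower under Jmjd2a, and 21 were higher and 4 lower under Jmjd2c. A gene is called here when its adjusted p was under 0.05 in limma's moderated test over all 45037 probe sets. Of all probe sets, 4.23% were called higher and 3.25% lower under Jmjd2a at day 1, 5.32% and 5.69% under Jmjd2c at day 1, 13.7% and 7.11% under Jmjd2a at day 3, and 9.28% and 5.04% under Jmjd2c at day 3. The median difference over the 90 genes was -0.10 and -0.07 at day 1 and 0.08 and 0.07 at day 3, where all probe sets had medians of -0.04, -0.03, -0.04 and -0.01. These genes are bright, and among probe sets above the median level 6.2% and 10.6% were lower at day 1 (14.4% and 23.3% of the 90 genes) and 25.6% and 17.8% were higher at day 3 (28.9% and 23.3% of the 90 genes). The day 3 shares thus lay near those of bright probe sets in general, and the day 1 shares of lower genes lay above theirs. The 2 sets are not alike: bright probe sets begin at 5.22, while the median level of the 90 genes was 11.48. The 90 genes also varied less between replicates than all probe sets, and whether the shares differ was not tested. The groups of each comparison share their control arrays between the labels, so the same values enter both.

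**Figure D1:**
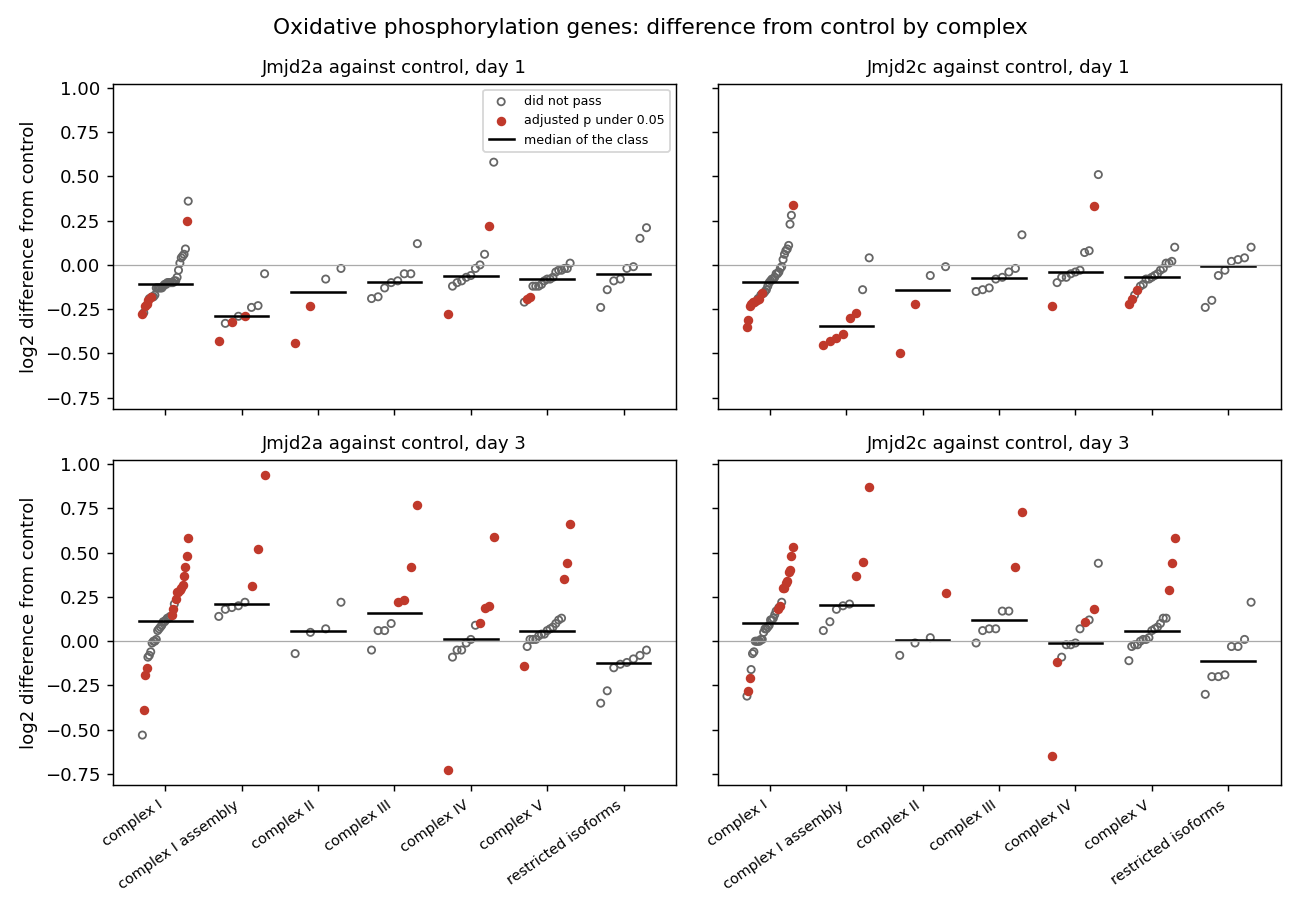
Log2 difference from control (vertical axis) of each gene, by complex (horizontal axis), for the 4 comparisons of a labelled group with the control of its day, 2 arrays a group. Filled points passed the test, open points did not, and bars mark the median of each class. The medians of the assembly factors were -0.29 and -0.34 at day 1 and 0.21 and 0.20 at day 3, the latter 0.07 and 0.12 with quantile normalization.

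The counts at day 1 changed when 1 array was left out, and why they changed was not tested. The median difference over the genes described here kept its sign. Under Jmjd2a at day 1 it was -0.101 with all arrays, and -0.122 to -0.077 without 1 of the arrays compared. Under Jmjd2c at day 1 it was -0.075, and -0.095 to -0.053 without 1 of them. Leaving out control day 1 replicate 1, control day 1 replicate 2 or Jmjd2a day 1 replicate 1 left 3, 0 or 2 genes lower and 0 higher under the Jmjd2a label, and leaving out day 3 control replicate 2, which enters only through the shared variance, gave 24 lower. For Jmjd2c the count of lower genes was 2, 3, 5 or 7 without control day 1 replicate 1, control day 1 replicate 2, Jmjd2c day 1 replicate 1 or Jmjd2c day 1 replicate 2, and the count of higher genes 1 without control day 1 replicate 1 and 4 without day 3 control replicate 2. At day 3 the higher count under Jmjd2a was 15 without Jmjd2a day 3 replicate 1, and the lower count was 2 without Jmjd2a day 3 replicate 2. Under Jmjd2c at day 3 the lower count was 2 without either Jmjd2c array. Without day 3 control replicate 2, the array that stands apart, 21 were higher and 4 lower under Jmjd2a at day 3, and 19 and 4 under Jmjd2c. Such a fit has 1 array in a group, which is assumed to vary like the others.

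The change of the controls over time uses the same day 3 control arrays as the day 3 comparisons. From day 1 to day 3 in control, 28 of the 90 genes fell and 8 rose, where 15.4% of all probe sets fell and 8.46% rose (28.4% and 11.8% of the bright ones). With the arrays centred on their medians, the split was 32 lower and 4 higher. The median over the 90 genes was -0.06 as deposited and -0.001 after quantile normalization. The count of higher genes was 3 or 5 without control day 1 replicate 1 or 2, and the count of lower genes 16 without control day 1 replicate 2. In the labelled groups 11 genes rose and 0 fell under Jmjd2a, and 13 rose and 2 fell under Jmjd2c. Most of these were not called in control: Ndufb8, Cox5a, Atp5a1 and Atp5j were among them, Cox6c rose in control as well as under Jmjd2a, and Cox7c fell in control as well as under Jmjd2c. Of all probe sets 2.26% rose and 3.35% fell under Jmjd2a, and 3.27% rose and 5.36% fell under Jmjd2c. Of the bright ones 4.25% rose and 5.66% fell under Jmjd2a, and 5.87% rose and 9.31% fell under Jmjd2c. Unadjusted, 53 of the 90 genes had p under 0.05 in the Jmjd2a comparison of days. The counts of rising genes changed when 1 array was left out, in fits that leave 1 array in a group, and why they changed was not tested. The median change over the 90 genes from day 1 to day 3 kept its sign. Under Jmjd2a it was 0.134 with all arrays, and 0.104 to 0.145 without 1 of the Jmjd2a arrays. Under Jmjd2c it was 0.099, and 0.102 to 0.108 without 1 of the Jmjd2c arrays.

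**Figure D2:**
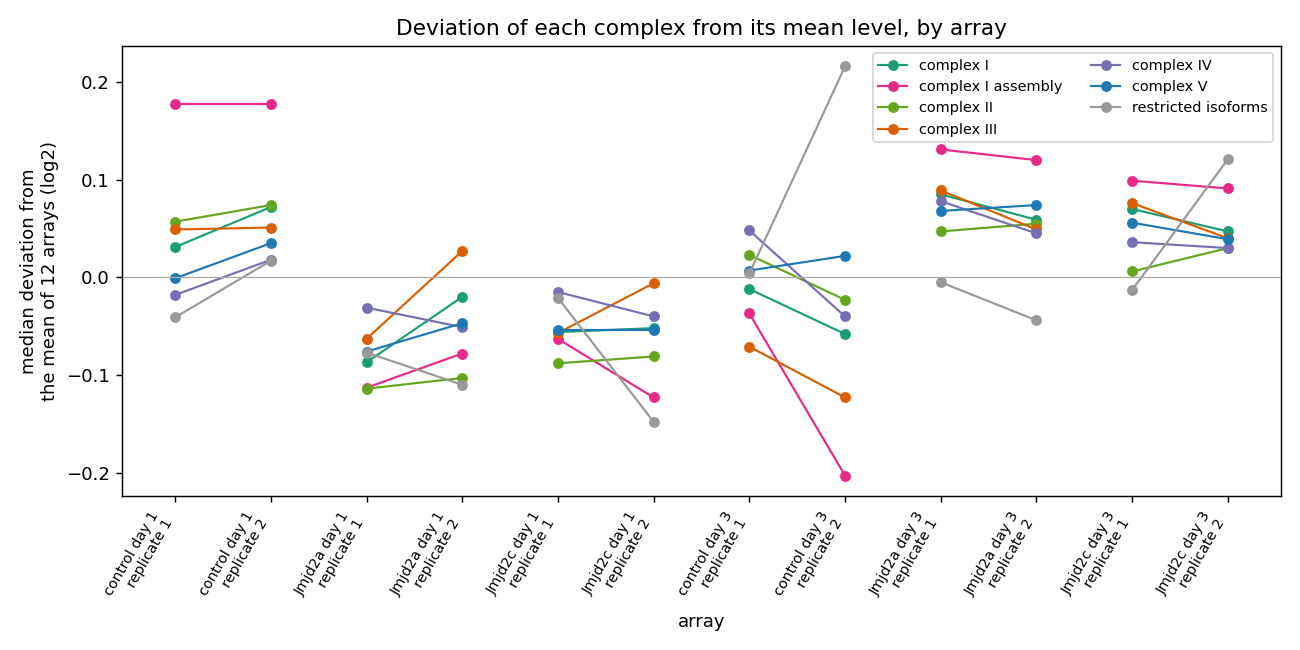
Median deviation of each class from its own mean over 12 arrays (vertical axis, log2) on each array (horizontal axis), with a line joining the 2 arrays of a group. The assembly factors were at 0.18 on both day 1 controls, at or below -0.06 on the day 1 labelled arrays, at -0.04 and -0.20 on the day 3 controls, and at 0.09 to 0.13 on the day 3 labelled arrays.

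Over the 82 genes without the restricted isoforms, the group means of the day 3 labelled groups were nearest to those of the day 1 control. The mean absolute difference from the day 1 control was 0.064 for Jmjd2a day 3 and 0.065 for Jmjd2c day 3, with 63 and 65 genes within 0.1. It was 0.142 and 0.147 for the day 1 labelled groups and 0.209 for the day 3 control. The 2 labels lay closest together, at 0.047 on day 1 and 0.045 on day 3. Against each other they gave 0 calls among the 90 genes on either day, and 0% of all probe sets were called; limma's unadjusted p was under 0.05 for 2 of these genes at day 1 and 1 at day 3, and for 1081 and 2571 of all probe sets. The 3 genes with such a p were Atp5mpl at day 1, at -0.18 for Jmjd2a minus Jmjd2c (95% interval -0.32 to -0.04), Atp5pb at day 1, at 0.14 (0.03 to 0.26), and Ndufb11 at day 3, at -0.15 (-0.26 to -0.05). A p that misses the threshold does not show that the labels act alike. At day 1 the differences between replicates were correlated across the 2 labels, at 0.392 over all probe sets, which the unpaired test did not use.

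Promoter stretches of 4 genes are shown as examples from among those with large differences at day 3. Atp5g1 also shares its mature protein with other genes. The stretches are from RefSeq on GRCm38.p6, read in the direction of the gene and ending just before its annotated start. An entry was found for 74 of the 90 genes. Capitals mark a motif found by letters on either strand: GCATGCGC, the core bound by NRF1 (nuclear respiratory factor 1), CCGGAAG, a motif of ETS factors such as GABP (also called NRF2), AAGATGG, a motif of YY1, and CACGTG, the E-box that Myc can bind. For Ndufaf4 the capitals cover GCATGCGC and its reverse complement, which overlap. Cox7a2l holds none of these letters in this window. Neither do the stretches of Ndufb2, Ndufab1 and Ndufa5, which also differed at day 3 and are not printed. A motif that reaches past the annotated start is not marked. Uqcr11 has such an NRF1 core, which begins in the last letters of its stretch, and Ndufaf4 has a further one just after its stretch.
Ndufaf4 (chr4:24897883-24898082, plus strand): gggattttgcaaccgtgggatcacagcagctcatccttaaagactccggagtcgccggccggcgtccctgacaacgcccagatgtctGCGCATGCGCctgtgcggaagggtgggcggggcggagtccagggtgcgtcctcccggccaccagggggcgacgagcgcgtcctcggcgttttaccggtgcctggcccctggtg
Uqcr11 (chr10:80406822-80407021, minus strand): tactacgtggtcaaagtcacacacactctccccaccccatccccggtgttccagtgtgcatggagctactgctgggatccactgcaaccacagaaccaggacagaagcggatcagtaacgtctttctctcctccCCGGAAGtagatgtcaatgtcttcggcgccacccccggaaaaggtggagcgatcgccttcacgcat
Atp5g1 (chr11:96075632-96075831, minus strand): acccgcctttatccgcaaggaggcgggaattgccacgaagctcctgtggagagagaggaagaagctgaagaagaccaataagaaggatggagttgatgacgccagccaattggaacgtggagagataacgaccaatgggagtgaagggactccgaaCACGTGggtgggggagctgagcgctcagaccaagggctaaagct
Cox7a2l (chr17:83514334-83514533, minus strand): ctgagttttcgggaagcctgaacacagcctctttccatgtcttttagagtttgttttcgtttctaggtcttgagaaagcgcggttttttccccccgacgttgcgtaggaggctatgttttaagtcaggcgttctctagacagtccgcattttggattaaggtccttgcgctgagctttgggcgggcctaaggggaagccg

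In windows from 250 bases before to 50 after the start, 11 of the 74 genes (14.9%) held the NRF1 core, against 3.05% of the 27025 genes of the table, which also lists noncoding genes. The ETS motif stood in 19 (25.7%, against 9.93%), the YY1 motif in 11 (14.9%, against 7.28%) and the E-box in 6 (8.11%, against 8.09%). Among the 21 genes that fell in control from day 1 to day 3 and had an entry, 8 held the ETS motif (38.1%), 5 the YY1 motif (23.8%), 3 the NRF1 core (14.3%) and 1 the E-box (4.76%). Among the other 53 the shares were 20.8%, 11.3%, 15.1% and 9.43%. A match of letters is a description of the sequence and not a binding site.

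Complex I, the NADH dehydrogenase, had 5 lower and 1 higher of 34 subunits at day 1 under Jmjd2a, and 9 and 1 under Jmjd2c. At day 3, 12 were higher and 3 lower under Jmjd2a, and 10 and 2 under Jmjd2c. In control 13 fell and 3 rose over time. Of bright probe sets 6.2% and 10.6% were lower at day 1, 25.6% and 17.8% were higher at day 3, and 28.4% fell in control. Whether any complex departs from such shares was not tested. The membrane arm subunit Ndufb2 was 11.05 and 11.10 in day 1 controls, 10.83 and 10.88 under Jmjd2a and 10.85 and 10.87 under Jmjd2c. At day 3 it was 10.48 and 10.43 in controls, 11.02 and 11.06 under Jmjd2a and 10.94 and 11.04 under Jmjd2c. The day 3 controls were the lowest arrays, and no array of them overlapped another group. Its differences from control were -0.22 ± 0.05 for both labels at day 1 (SE, adjusted p = 0.032 and 0.025) and 0.58 ± 0.05 and 0.53 ± 0.05 at day 3 (adjusted p = 2.2e-05 and 5.1e-05), or 1.5-fold and 1.45-fold. A second probe set of Ndufb2 gave 0.56 and 0.53 at day 3.

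Ndufa5, a subunit of the matrix arm, was 10.79 and 10.82 in day 1 controls and 10.27 and 10.31 in day 3 controls, with 10.80, 10.74, 10.79 and 10.75 on the day 3 labelled arrays. The control values fell by 0.52 ± 0.08 (adjusted p = 0.0008), and the labelled groups stood 0.48 ± 0.08 above the day 3 control each (adjusted p = 0.0017 and 0.0023). Ndufab1, the mitochondrial acyl carrier protein, was 11.38 on both day 3 controls, 11.78 and 11.80 on the day 1 controls, and 11.76 to 11.81 on the day 3 labelled arrays. Its day 3 differences were 0.42 ± 0.05 and 0.40 ± 0.05 (adjusted p = 0.00011 and 0.0002). Ndufa12, a subunit of the matrix arm, was 0.28 ± 0.06 and 0.39 ± 0.06 higher (adjusted p = 0.0032 and 0.00049). Ndufb3, Ndufb6, Ndufb7, Ndufb9, Ndufs4 and Ndufs7 were higher under both labels as well, by 0.18 to 0.37, and Ndufs1 and Ndufs3 under Jmjd2a, by 0.32 and 0.15; these 8 complete the counts.

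Ndufc1, a small membrane subunit, was 11.94 and 12.01 in day 1 controls, 11.63 and 11.75 under Jmjd2a and 11.60 and 11.64 under Jmjd2c, so that all labelled arrays were below both controls. The differences were -0.28 ± 0.05 and -0.35 ± 0.05 (adjusted p = 0.0044 and 0.00073), and at day 3 they were 0.13 and 0.12 without passing the test. Ndufb8, another membrane arm subunit, was at -0.20 ± 0.05 under each label at day 1 (adjusted p = 0.032 and 0.024). Ndufa6, which binds the acyl carrier protein in the complex, was 10.48 and 10.53 in day 1 controls, 10.80 and 10.71 under Jmjd2a and 10.78 and 10.90 under Jmjd2c. It was the one subunit of complex I higher at day 1, by 0.25 ± 0.06 and 0.34 ± 0.06 (adjusted p = 0.027 and 0.0036).

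Ndufv3 and Ndufa13 were lower at day 3. Ndufv3, a small subunit beside the flavin site, was 10.94 and 11.09 in day 3 controls, 10.67 and 10.59 under Jmjd2a and 10.75 and 10.73 under Jmjd2c, and 10.61 and 10.66 in day 1 controls. The differences were -0.39 ± 0.06 and -0.28 ± 0.06 (adjusted p = 0.00091 and 0.0098), and only the day 3 controls stood above the rest. Ndufa13, also known as GRIM-19, was 12.14 and 12.13 in day 3 controls and 11.92 to 11.96 on the day 3 labelled arrays, with differences of -0.19 ± 0.04 and -0.21 ± 0.04 (adjusted p = 0.0045 and 0.0032). Ndufb11 was lower under Jmjd2a at day 3 by -0.15 ± 0.05 on its brightest probe set (adjusted p = 0.043), while another of its 3 probe sets was higher by 0.24 (adjusted p = 0.0044), so its direction depended on the probe set. Among these day 3 calls, those of Ndufb2, Ndufab1 and Ndufa5 (Jmjd2a), Ndufb2, Ndufab1 and Ndufa12 (Jmjd2c), Ndufv3 under Jmjd2a and Ndufa13 under Jmjd2c were kept when any 1 array was left out. Ndufv3 under Jmjd2c lost its call without either Jmjd2c day 3 array (-0.35 to -0.20), Ndufa13 under Jmjd2a without Jmjd2a day 3 replicate 2 (-0.20 to -0.18), and Ndufb11 without day 3 control replicate 2 or either Jmjd2a day 3 array (-0.20 to -0.11). At day 1, Ndufc1 under Jmjd2c was kept throughout. Ndufb2, Ndufa6 and Ndufb8 under Jmjd2a lost their calls without either day 1 control or without Jmjd2a day 1 replicate 1, Ndufc1 under Jmjd2a without control day 1 replicate 2, and Ndufa6 under Jmjd2c without control day 1 replicate 1. Under Jmjd2c the day 1 calls of Ndufb2 and Ndufb8 were lost without any 1 of their 4 arrays.

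Of the complex I assembly factors, all 8 were below control at day 1 under Jmjd2a and 7 under Jmjd2c, of which 3 and 6 passed the test, and all 8 were above control at day 3 under both labels, of which 3 passed each time. In control all 8 were lower at day 3 than at day 1, and 4 passed. Over all 90 genes, 76 and 68 were below control at day 1, 64 and 62 were above it at day 3, and 51 were lower in control over time. The shares of bright probe sets called are those given above for complex I. Whether the assembly factors depart from these counts and shares was not tested. The medians were -0.29 and -0.34 at day 1, 0.21 and 0.20 at day 3 and -0.24 in control over time. With quantile normalization the day 3 medians were 0.07 and 0.12 and that in control over time -0.10, while those of day 1 were -0.30 and -0.35. Ndufaf4, a factor for the peripheral arm, was 10.34 and 10.39 in day 1 controls, 10.10 and 9.97 under Jmjd2a and 10.02 and 9.90 under Jmjd2c. At day 3 it was 9.49 and 9.04 in controls, 10.18 and 10.24 under Jmjd2a and 10.12 and 10.15 under Jmjd2c. The day 3 controls were the lowest arrays, and the second of them, the array that stands apart, was the lower one. Ndufaf4 fell by 1.10 ± 0.12 in control (adjusted p = 3e-05), to 0.468 of its day 1 level, and at day 3 it was 0.94 ± 0.12 and 0.87 ± 0.12 higher under the labels (adjusted p = 0.00015 and 0.00031), or 1.92-fold and 1.83-fold. At day 1 it was at -0.33 ± 0.12 and -0.41 ± 0.12, and only the Jmjd2c difference passed (adjusted p = 0.12 and 0.043). Its second probe set gave 1.55, 1.47 and -1.64 for the same comparisons.

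Ndufaf6 was 8.84 and 8.80 in day 1 controls, 8.35 to 8.47 on the day 1 labelled arrays, 8.36 and 8.01 in day 3 controls and 8.56 to 8.74 on the day 3 labelled arrays. It was lower by -0.43 ± 0.11 under each label at day 1 (adjusted p = 0.042 and 0.031) and higher at day 3 by 0.52 ± 0.11 and 0.45 ± 0.11 (adjusted p = 0.0066 and 0.02). Ndufaf8, which acts with the assembly factor Ndufaf5, was 10.84 and 10.88 in day 1 controls, 10.57 to 10.60 on the day 1 labelled arrays, 10.35 and 10.45 in day 3 controls and 10.68 to 10.78 on the day 3 labelled arrays. It was at -0.29 ± 0.05 and -0.27 ± 0.05 at day 1 (adjusted p = 0.0073 and 0.0077) and at 0.31 ± 0.05 and 0.37 ± 0.05 at day 3 (adjusted p = 0.0017 and 0.0006). For both genes every labelled array lay outside the range of the controls of its day. Ndufaf7, a methyltransferase that modifies a complex I subunit, was lower at day 1, at -0.32 ± 0.08 and -0.45 ± 0.08 (adjusted p = 0.029 and 0.0037). Ndufaf3 and Ndufaf5 passed in no comparison. The day 3 calls of Ndufaf4 and Ndufaf8 and their fall in control were kept when any 1 array was left out. Ndufaf6 lost its day 3 call under Jmjd2a without Jmjd2a day 3 replicate 2 and under Jmjd2c without day 3 control replicate 2 or either Jmjd2c array (0.27 to 0.62). At day 1, Ndufaf8 lost its call under each label without either day 1 control, Ndufaf7 under Jmjd2c without control day 1 replicate 1, Ndufaf7 under Jmjd2a without either day 1 control or without Jmjd2a day 1 replicate 1, and Ndufaf6 under Jmjd2a without any 1 of its 4 arrays.

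Complex II, the succinate dehydrogenase that also belongs to the citric acid cycle, has 4 subunits. Its catalytic pair, the flavoprotein Sdha and the iron-sulfur protein Sdhb, passed in none of the 11 comparisons, and the membrane anchors Sdhc and Sdhd were lower at day 1. Sdhc was 9.32 and 9.38 in day 1 controls, 8.86 and 8.95 under Jmjd2a, 8.78 and 8.93 under Jmjd2c, 8.91 and 8.98 in day 3 controls, 9.13 and 9.21 under Jmjd2a and 9.18 and 9.25 under Jmjd2c. The day 1 controls were the highest arrays, and the labelled arrays of each day did not overlap the controls of that day. The differences were -0.44 ± 0.08 and -0.50 ± 0.08 at day 1 (adjusted p = 0.0057 and 0.002) and 0.22 ± 0.08 and 0.27 ± 0.08 at day 3 (adjusted p = 0.073 and 0.046). A dimmer probe set of Sdhc gave -0.17 and -0.16 at day 1 and -0.16 and -0.06 at day 3, none of which passed. Sdhd was 10.83 and 10.85 in day 1 controls and 10.60 to 10.63 on the day 1 labelled arrays, a difference of -0.23 ± 0.05 and -0.22 ± 0.05 (adjusted p = 0.018 and 0.017). Sdha was between 11.19 and 11.41 and Sdhb between 11.41 and 11.50 on all arrays. A second probe set of Sdha was lower at day 3 by -0.39 under each label (adjusted p = 0.00035 and 0.00044), unlike the brighter one at -0.07 and -0.08. The Sdhc call at day 1 was kept under Jmjd2c with any 1 array left out and was lost under Jmjd2a without control day 1 replicate 2 or Jmjd2a day 1 replicate 1. The Sdhd call was lost under each label without any 1 of its 4 arrays, with differences of -0.24 to -0.22 and -0.23 to -0.21, and the Sdhc call at day 3 without control day 3 replicate 1 or either Jmjd2c array.

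**Figure D3:**
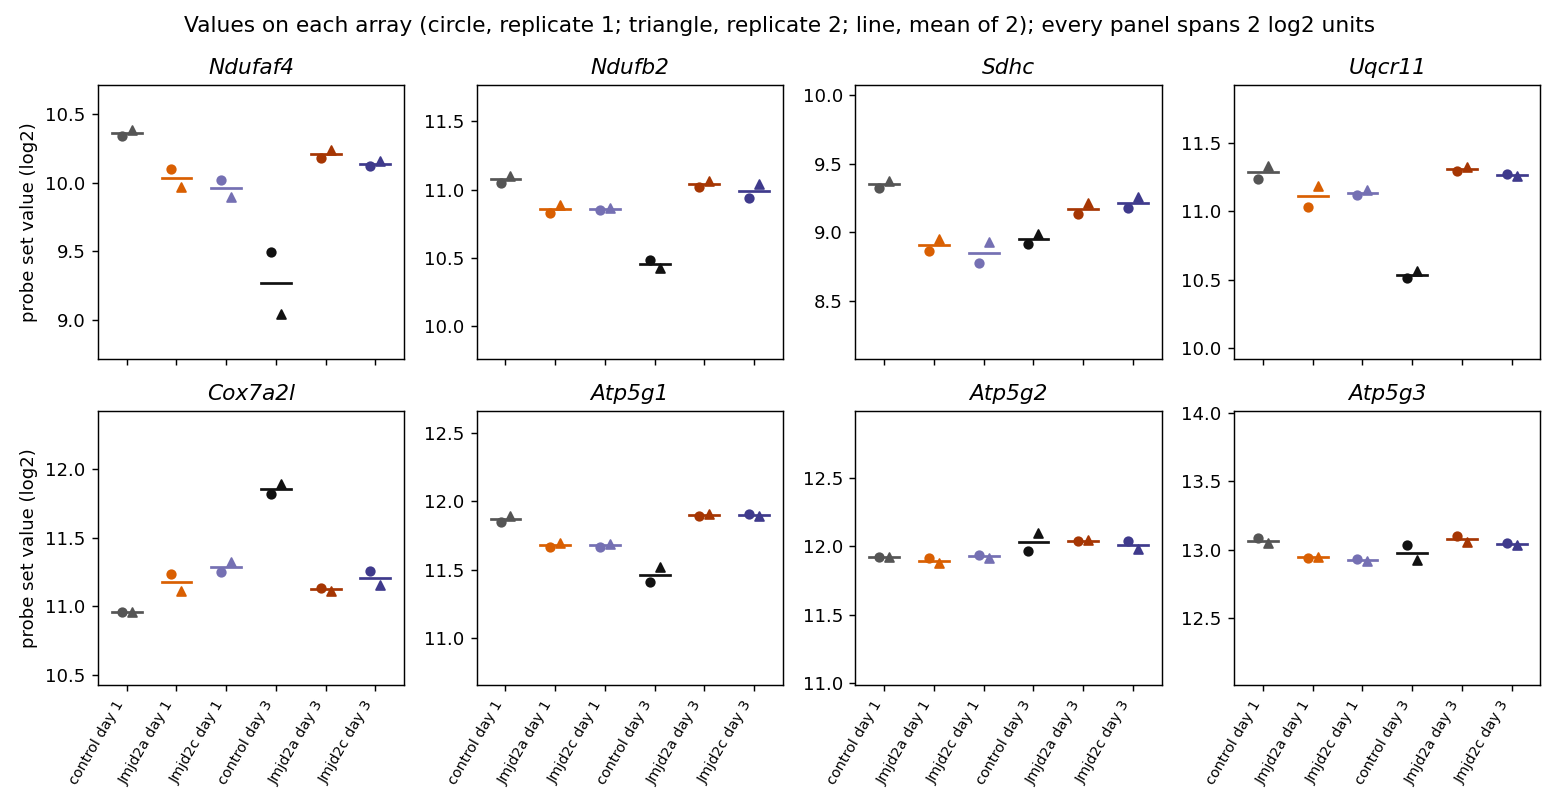
Log2 values of 8 genes (vertical axes, each spanning the same distance) on the arrays of 6 groups (horizontal axes), with both replicates as points and their mean as a line. Ndufaf4, Ndufb2, Uqcr11 and Atp5g1 were lowest in the day 3 controls, Cox7a2l was highest there (11.82 and 11.89), Atp5g2 lay between 11.88 and 12.10, and Atp5g3 between 12.92 and 13.10.

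Complex III, the cytochrome bc1 complex, had no call at day 1, with 0 of 8 genes under either label in limma's test, where 1 gene under Jmjd2a and 3 under Jmjd2c had an unadjusted p under 0.05. At day 3, 4 were higher under Jmjd2a and 2 under Jmjd2c, and in control 4 fell. Of bright probe sets 25.6% and 17.8% were higher at day 3, and 28.4% fell in control. Uqcr11, its smallest subunit, was 11.24 and 11.33 in day 1 controls, 11.03 and 11.18 under Jmjd2a and 11.12 and 11.16 under Jmjd2c. At day 3 it was 10.51 and 10.56 in controls, 11.29 and 11.32 under Jmjd2a and 11.27 and 11.26 under Jmjd2c. The labelled arrays of day 3 lay beside the day 1 controls, and the day 3 controls lay apart from every other array. The differences at day 3 were 0.77 ± 0.06 and 0.73 ± 0.06 (adjusted p = 5.6e-06 and 9.8e-06), or 1.71-fold and 1.66-fold, and the fall in control was -0.75 ± 0.06 (adjusted p = 3.1e-06). Uqcrq, which lies next to cytochrome b, was 11.17 and 11.32 in day 3 controls and 11.66 to 11.68 on the day 3 labelled arrays, a difference of 0.42 ± 0.07 under each label (adjusted p = 0.0018 and 0.0021). Uqcrb and the Rieske iron-sulfur protein Uqcrfs1 were higher under Jmjd2a, by 0.22 ± 0.07 and 0.23 ± 0.06 (adjusted p = 0.041 and 0.021), and were at 0.17 under Jmjd2c without passing. The day 3 controls of Uqcrb were 13.28 and 12.98, the lower being the array that stands apart, and its Jmjd2a arrays of day 3 were 13.37 and 13.32. The core proteins Uqcrc1 and Uqcrc2 and the hinge protein Uqcrh passed in no comparison. The day 3 calls of Uqcr11 and Uqcrq were kept with any 1 array left out, and that of Uqcrfs1 was lost without day 3 control replicate 2 or either Jmjd2a array (0.14 to 0.32); in control the fall of Uqcrq was lost without either day 1 array (-0.38 to -0.23).

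Complex IV, cytochrome c oxidase, was mixed, and its medians at day 3 (0.01 and -0.01) and in control over time (0.02) changed sign with the scaling of the arrays. Cox7a2l ran against most of the genes. It was 10.96 on both day 1 controls, 11.24 and 11.11 under Jmjd2a and 11.25 and 11.32 under Jmjd2c. At day 3 it was 11.82 and 11.89 in controls, 11.13 and 11.11 under Jmjd2a and 11.25 and 11.15 under Jmjd2c. The day 3 controls were the highest arrays and the day 1 controls the lowest, and neither overlapped a labelled array. It was higher at day 1 by 0.22 ± 0.06 and 0.33 ± 0.06 (adjusted p = 0.037 and 0.003), rose in control by 0.90 ± 0.06 (adjusted p = 6.7e-07), or 1.87-fold, and was lower at day 3 by -0.73 ± 0.06 and -0.65 ± 0.06 (adjusted p = 6.2e-06 and 1.7e-05). All 3 of its probe sets passed in these 5 comparisons with the same sign. The call at day 1 under Jmjd2a was lost without either day 1 control or without Jmjd2a day 1 replicate 1 (0.16 to 0.28), and the others were kept with any 1 array left out.

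Cox5a, a subunit on the matrix side, was 12.84 and 12.88 in day 1 controls and 12.53 to 12.68 on the day 1 labelled arrays, with differences of -0.28 ± 0.05 and -0.23 ± 0.05 (adjusted p = 0.0082 and 0.015). At day 3 it was at -0.05 and -0.01 without passing. Cox6a1, Cox7a2 and Ndufa4, which was first assigned to complex I and belongs to complex IV, were higher under Jmjd2a at day 3 by 0.10, 0.19 and 0.20, and Cox6a1 and Ndufa4 under Jmjd2c by 0.11 and 0.18. Cox4i1, the widely expressed form of subunit 4, was lower under Jmjd2c at day 3 by -0.12 ± 0.04 (adjusted p = 0.044) and rose in control by 0.18 ± 0.04 (adjusted p = 0.004). Cox7c spanned the widest range of the 90 genes, from 6.23 to 7.94. At day 1 it was at 0.58 ± 0.19 and 0.51 ± 0.19 under the labels (adjusted p = 0.10 and 0.13), and at day 3 at 0.59 ± 0.19 and 0.44 ± 0.19 (adjusted p = 0.049 and 0.17). Its Jmjd2a arrays of day 3 were 7.03 and 7.29, and its lower day 3 control was the array that stands apart. Over time Cox7c was at -0.64 ± 0.19 under Jmjd2a (adjusted p = 0.085) and fell by 0.72 ± 0.19 under Jmjd2c (adjusted p = 0.041). Its day 3 controls were 6.91 and 6.23, and its fall in control by 0.65 ± 0.19 (adjusted p = 0.029) was lost without either day 1 control or without day 3 control replicate 2 (-0.99 to -0.31). The day 3 calls of Cox6a1 and Cox7a2 under Jmjd2a were lost without day 3 control replicate 2 or either Jmjd2a array (0.07 to 0.12 and 0.13 to 0.25), and that of Ndufa4 without day 3 control replicate 2 or Jmjd2a day 3 replicate 1 (0.13 to 0.26). Under Jmjd2c those of Cox6a1 and Ndufa4 were lost without day 3 control replicate 2 or either Jmjd2c array, and that of Cox4i1 without any 1 of its 4 arrays; its rise in control was lost without control day 1 replicate 1. The Cox5a call was lost without control day 1 replicate 2 or Jmjd2a day 1 replicate 1 under Jmjd2a (-0.34 to -0.22), and without either day 1 control or Jmjd2c day 1 replicate 1 under Jmjd2c.

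Complex V, the ATP synthase, had 2 and 3 of 17 genes lower at day 1 and 3 higher under each label at day 3. For scale, 6.2% and 10.6% of bright probe sets were lower at day 1 and 25.6% and 17.8% higher at day 3. Whether complex V departs from these shares was not tested. Its catalytic core held few calls. Atp5a1, the alpha subunit, was at -0.18 ± 0.04 under Jmjd2a at day 1 (adjusted p = 0.011), Atp5b, the beta subunit, at -0.22 ± 0.06 under Jmjd2c (adjusted p = 0.047), and neither passed at day 3. The proton-carrying c ring is made of one protein encoded by 3 genes, Atp5g1, Atp5g2 and Atp5g3, whose products differ in the import sequence that is cut off. Atp5g1 was 11.85 and 11.89 in day 1 controls, 11.67 and 11.69 under Jmjd2a, 11.66 and 11.69 under Jmjd2c, 11.41 and 11.52 in day 3 controls, 11.89 and 11.90 under Jmjd2a and 11.91 and 11.89 under Jmjd2c. The day 3 labelled arrays lay at or just above the day 1 controls, and the day 3 controls were lowest. It was lower by -0.19 ± 0.05 under each label at day 1 (adjusted p = 0.025 and 0.017) and higher by 0.44 ± 0.05 under each at day 3 (adjusted p = 4.8e-05 and 5.5e-05), and it fell in control by 0.41 ± 0.05 (adjusted p = 4.6e-05). Atp5g2 passed in no comparison, with day 3 differences of 0.01 (95% interval -0.09 to 0.11) and -0.02 (95% interval -0.12 to 0.08). Atp5g3 was at 0.10 (95% interval 0.02 to 0.18) and 0.07 (95% interval -0.01 to 0.15) at day 3 without passing, and at -0.14 ± 0.04 at day 1 under Jmjd2c (adjusted p = 0.033). Whether Atp5g1 differed from the other 2 genes was not tested.

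Atp5mpl, a small membrane subunit, was 11.39 and 11.38 in day 1 controls, 10.89 and 10.73 in day 3 controls, 11.48 and 11.46 under Jmjd2a at day 3 and 11.39 on both Jmjd2c arrays of day 3. The day 3 controls were lowest and separate from all other arrays. The day 3 differences were 0.66 ± 0.06 and 0.58 ± 0.06 (adjusted p = 2.6e-05 and 7.3e-05). Atp5e, the epsilon subunit of the stalk, was 12.03 and 11.96 in day 3 controls and 12.28 to 12.37 on the day 3 labelled arrays, higher by 0.35 ± 0.04 and 0.29 ± 0.04 (adjusted p = 7.7e-05 and 0.00034), with 0.01 under each label at day 1. Atp5c1, the gamma subunit that turns inside the catalytic head, was at -0.14 ± 0.04 under Jmjd2a at day 3 (adjusted p = 0.048) and rose in control by 0.15 ± 0.04 (adjusted p = 0.026). The day 3 calls of Atp5g1, Atp5mpl and Atp5e were kept with any 1 array left out; that of Atp5c1 was lost without control day 3 replicate 1 or either Jmjd2a array (-0.18 to -0.09), and that of Atp5a1 at day 1 without either day 1 control or Jmjd2a day 1 replicate 1. The day 1 calls of Atp5g1 under each label, and of Atp5g3 and Atp5b under Jmjd2c, were lost without any 1 of their 4 arrays.

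The 8 restricted isoforms showed no call in any comparison in limma's test, with a smallest adjusted p of 0.097 and 1 unadjusted p under 0.05 over 11 comparisons. They were Cox4i2, Cox6a2, Cox6b2, Cox7a1, Cox7b2, Cox8b, Cox8c and the hypoxia-induced Ndufa4l2, with values between 2.61 and 7.43 and ranges over the arrays of 0.45 to 0.77. Together with 22 others, among them the large subunits Uqcrc1 and Uqcrc2, Ndufs8 and the peripheral stalk gene Atp5h, they made up the 30 of 90 genes that passed in none of the 11 comparisons. Ndufb4 was measured on a dim probe set of its own, at 3.16 to 4.27, and passed nowhere. A pair of brighter probe sets shared by Ndufb4 and its copies Ndufb4b and Ndufb4c was higher at day 3, by 0.38 and 0.44 under Jmjd2a and 0.31 and 0.44 under Jmjd2c, but cannot be assigned to 1 gene. Probe sets shared by Ndufs6 and by Ndufa11 with their copies were higher at day 3 by 0.21 and 0.26 under Jmjd2a and by 0.22 and 0.23 under Jmjd2c. Other probe sets of the same genes that lay above the median level were compared with the ones used. Under Jmjd2a at day 3, 27 of them belonged to genes that were called, 24 had the same sign and 18 passed the same way. Under Jmjd2c at day 3 these were 22, 17 and 13, and in control over time 29, 24 and 17. At day 1 fewer passed: of 15 under Jmjd2a 14 had the same sign and 5 passed the same way, and of 21 under Jmjd2c 20 and 8. Over time under the labels these were 10 and 3 of 11 for Jmjd2a and 10 and 4 of 10 for Jmjd2c.

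The change between the days was itself tested, as the day 3 difference from control minus the day 1 difference. Under Jmjd2a 35 genes were more positive at day 3 and 3 more negative, and under Jmjd2c 32 and 4, where 12% and 6.36% of all probe sets were called under Jmjd2a and 10.7% and 6.84% under Jmjd2c. Among bright probe sets 22.3% and 10.1% were called under Jmjd2a, and 20% and 11.3% under Jmjd2c. Of the 90 genes 38.9% and 3.33% were called under Jmjd2a, and 35.6% and 4.44% under Jmjd2c. The medians over the 90 genes were 0.19 for both labels. They were -0.01 and 0.01 over all probe sets, and 0.1 and 0.08 over the bright ones. The assembly factors had medians of 0.47 and 0.57, with 6 of 8 called for each label. The value was 1.27 ± 0.16 and 1.28 ± 0.16 (adjusted p = 0.00021 and 0.00019) for Ndufaf4, 0.95 ± 0.08 and 0.88 ± 0.08 (adjusted p = 1.7e-05 and 2.3e-05) for Uqcr11 and 0.67 ± 0.11 and 0.77 ± 0.11 (adjusted p = 0.0014 and 0.00053) for Sdhc. For Cox7a2l it was -0.95 ± 0.08 and -0.98 ± 0.08 (adjusted p = 1.4e-05 and 8.7e-06). The fall of a gene in control enters these values for both labels, as the controls are shared. The count of positive changes was 22 without Jmjd2a day 3 replicate 1 for Jmjd2a and 21 without control day 1 replicate 2 for Jmjd2c, and the 3 negative ones were 5 without Jmjd2a day 1 replicate 2 and 7 without control day 3 replicate 1.

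**Figure D4:**
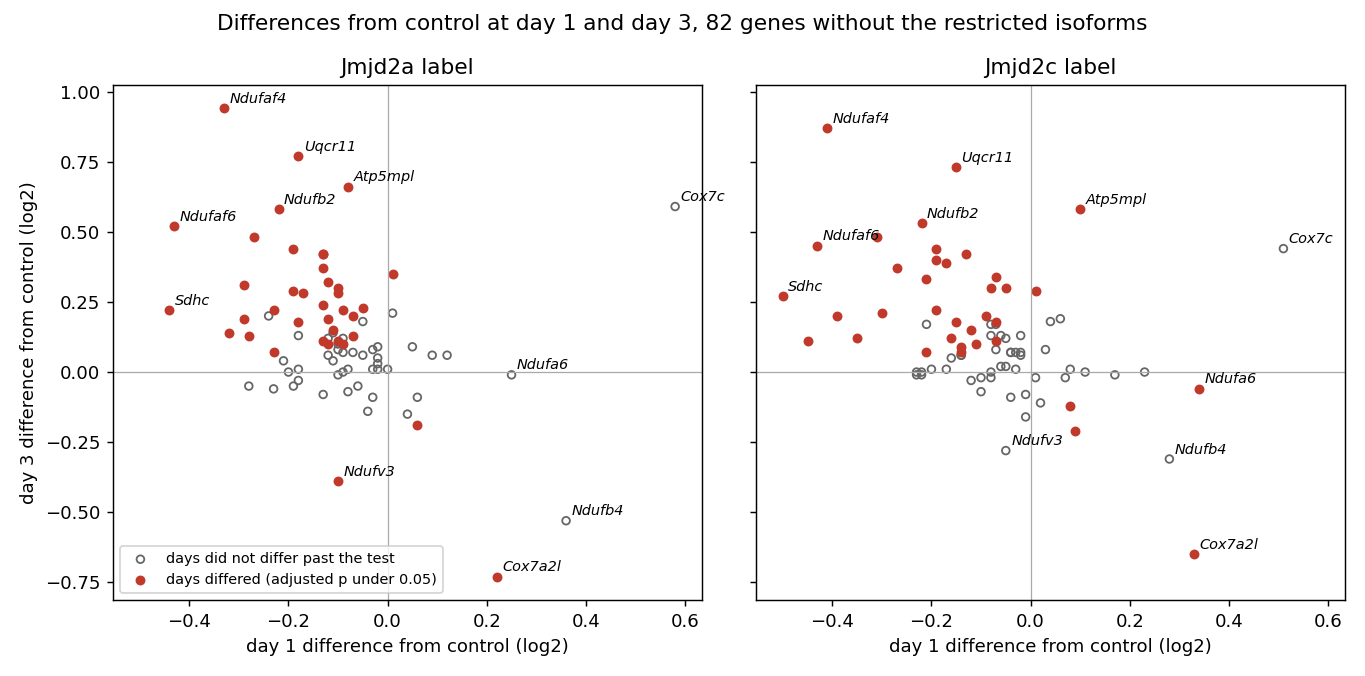
Day 3 difference from control (vertical axis, log2) against the day 1 difference (horizontal axis, log2) for the 82 genes other than the restricted isoforms, with the Jmjd2a label on the left and Jmjd2c on the right. Filled points are genes whose differences at the 2 days differed past the test. Ndufaf4 stands at -0.33 and 0.94 for Jmjd2a, and Cox7a2l at 0.22 and -0.73.

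Genes that work with the complexes were listed by role. For scale, 6.2% and 10.6% of bright probe sets were lower at day 1 under Jmjd2a and Jmjd2c, and 7.22% and 9.01% higher. At day 3, 25.6% and 17.8% of them were higher and 9.6% and 8.5% lower. In control 28.4% of them fell over time and 11.8% rose. Whether any list here or in the next paragraph departs from these shares was not tested. Of 35 measured assembly factors outside the 90 genes, 0 were higher and 4 and 6 lower at day 1 under Jmjd2a and Jmjd2c, 12 and 10 were higher at day 3 with 2 lower each, and 13 fell and 2 rose in control. Cox10, which makes the heme of complex IV, was 0.51 ± 0.10 and 0.44 ± 0.10 higher at day 3 (adjusted p = 0.0037 and 0.011), and Surf1, another complex IV factor, was lower by -0.71 ± 0.09 and -0.67 ± 0.09 (adjusted p = 0.00016 and 0.00028). Of 15 citric acid cycle and pyruvate dehydrogenase genes, 3 and 4 were lower at day 1, 6 were higher at day 3 under each label with 1 lower under Jmjd2a, and 7 fell and 2 rose in control. Of 11 genes of ubiquinone synthesis, cytochrome c and electron transfer flavoprotein, 1 and 5 were lower at day 1, 5 and 4 were higher at day 3 with 1 lower each, and 7 fell in control; the cytochrome c gene Cycs was at -0.21 ± 0.04 under Jmjd2c at day 1 (adjusted p = 0.01).

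Of 14 import, channel and chaperone genes, 8 and 13 were lower at day 1, 9 and 8 were higher at day 3 with 1 lower each, and 9 fell and 1 rose in control. Hspd1, the matrix chaperonin, was 13.09 and 13.14 in day 1 controls, 12.41 and 12.42 in day 3 controls and 12.98 to 13.05 on the day 3 labelled arrays. It was higher at day 3 by 0.62 ± 0.04 and 0.61 ± 0.04 (adjusted p = 2.2e-06 and 3.1e-06). The outer membrane channel Vdac1 was lower at both days, by -0.26 and -0.18 at day 1 and -0.42 and -0.47 at day 3. Of 16 genes of mitochondrial transcription and maintenance, 1 was higher under each label and 3 lower under Jmjd2c at day 1, 6 and 4 were higher at day 3 with 1 lower each, and 6 fell and 1 rose in control. Tfam, which packs and transcribes mitochondrial DNA, was 0.46 ± 0.10 and 0.44 ± 0.10 higher at day 3 (adjusted p = 0.008 and 0.013), and Ppargc1a, a coactivator of these genes, was measured on a dim probe set, at 3.42 to 5.28 and below the median level of 5.22 on all arrays but day 3 control replicate 1, with differences of 1.04 and 1.37 at day 1 and -1.15 and -1.05 at day 3 whose size is uncertain so near the floor. Atpif1, the inhibitor of the ATP synthase, rose in control by 0.85 ± 0.11 (adjusted p = 0.00019) and was at -0.61 ± 0.11 and -0.71 ± 0.11 at day 3 (adjusted p = 0.0025 and 0.0011).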

How the data were processed

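Total RNA of 12 samples was hybridised to Affymetrix whole-genome mouse arrays, 6 groups of 2. The authors deposited 1 table of log2 values for 45101 probe sets; how they were normalized is not stated in the labels, and the values run from 1.93 to 14.59. After removal of 64 controls, the other 45037 entered 1 model of 6 group means with limma 3.58.1 in R 4.3.3 (intensity trend, Benjamini-Hochberg adjustment over all probe sets, threshold 0.05, 6 residual and 5.85 prior degrees of freedom) in 11 comparisons. Array values have no read depth, so the number of arrays limits the precision. In simulated data of this size, 200 of the 45037 probe sets were changed. The day 1 Jmjd2a comparison recovered 0.5% of planted changes at 1.2-fold, 42.5% at 1.5-fold and 79% at 2-fold. The difference between days recovered 0%, 6% and 49.5%. In the deposited data the day 1 Jmjd2a comparison called 1904 probe sets higher and 1462 lower, which makes the adjustment less strict than in the simulation. The genes described here also had a smaller median SD than all probe sets. It was 0.031 against 0.062 in day 1 controls and 0.062 against 0.082 under Jmjd2a at day 1. The recovered shares therefore do not apply to these genes. Symbols came from GEO's platform annotation: 34945 probe sets had 1 gene symbol, 932 several and 9160 none. Within each comparison and class, up to 3 genes of smallest p in each direction were named, with the Sdh genes, the restricted isoforms, the brightest and dimmest members and those whose probe sets disagree. The members, marker lists and pathway lists were chosen with earlier results of these data known. Replicate numbers are not a shared litter or day in the labels. Of 15 pairs of groups 1 had a correlation of same-numbered deviations over 0.1, at 0.392 for Jmjd2a day 1 with Jmjd2c day 1. Replicate numbers were not used as pairs in any comparison, that of these groups included. Promoters were searched with Python 3.11.15. Alternatives were another normalization, centring, a filter on dim probe sets, other variance priors and weights, a replicate block, fewer arrays, other thresholds, other probe sets and leaving out each array. Day 0 cells, which the series' design mentions, were not analysed here.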

Additional observations from a re-analysis of the deposited data

Results flagged for a closer look

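The named genes below had a difference from control that changed between day 1 and day 3, tested as the day 3 difference minus the day 1 difference in the limma fit with adjustment over all probe sets. These values are differences of log2 differences, which hold the controls' own change from day 1 to day 3, and are not changes within the labelled group. For the Jmjd2a label the value was positive, at 0.8 for Ndufb2, 0.55 for Ndufab1, 0.75 for Ndufa5, 0.6 for Ndufaf8, 1.27 for Ndufaf4, 0.95 for Ndufaf6, 0.67 for Sdhc, 0.3 for Sdhd, 0.95 for Uqcr11, 0.55 for Uqcrq, 0.29 for Uqcrfs1, 0.31 for Cox7a2, 0.19 for Cox6a1, 0.27 for Ndufa4, 0.63 for Atp5g1, 0.74 for Atp5mpl and 0.35 for Atp5e. It was negative at -0.25 for Ndufa13, -0.29 for Ndufv3 and -0.95 for Cox7a2l. For the Jmjd2c label the value was positive, at 0.75 for Ndufb2, 0.58 for Ndufab1, 0.56 for Ndufa12, 0.64 for Ndufaf8, 1.28 for Ndufaf4, 0.88 for Ndufaf6, 0.77 for Sdhc, 0.88 for Uqcr11, 0.55 for Uqcrq, 0.18 for Cox6a1, 0.25 for Ndufa4, 0.63 for Atp5g1, 0.49 for Atp5mpl and 0.28 for Atp5e. It was negative at -0.3 for Ndufa13, -0.4 for Ndufa6, -0.98 for Cox7a2l and -0.21 for Cox4i1. The control arrays are shared between the labels, so the values of both rest in part on the same 4 arrays.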

How the results depend on the processing

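Counts of the 90 genes are given as higher and lower calls, and no named difference changed sign when the scaling, variance prior, weights, block or arrays were varied; other probe sets of a gene could differ in sign, as for Ndufb11 and Sdhc. Leaving out 1 array at a time gave, for Jmjd2a against control at day 1, 0 to 3 higher and 0 to 24 lower, and for Jmjd2c 1 to 4 higher and 2 to 28 lower. At day 3 it gave 15 to 34 higher and 2 to 6 lower for Jmjd2a, and 14 to 28 higher and 2 to 4 lower for Jmjd2c. In control over time it gave 3 to 12 higher and 16 to 35 lower, under Jmjd2a over time 0 to 34 higher and 0 to 1 lower, and under Jmjd2c over time 1 to 28 higher and 0 to 2 lower. The difference between days gave 22 to 39 higher and 2 to 7 lower for Jmjd2a, and 21 to 40 higher and 3 to 6 lower for Jmjd2c. These fits leave 1 group with 1 array, assumed to vary like the others, and the cause of the changes in count was not tested here or below.

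With quantile normalization the difference between days had 6 lower for Jmjd2a. With centred arrays 3 were lower under Jmjd2a at day 3, and 4 were higher in control over time. Without dim probe sets 22 were higher under Jmjd2a and 23 under Jmjd2c over time, and the difference between days had 5 lower for Jmjd2a. With a prior variance without trend, Jmjd2a at day 1 had 0 higher and 1 lower, Jmjd2c at day 1 had 4 lower, Jmjd2a at day 3 had 16 higher and 2 lower, Jmjd2c at day 3 had 1 lower, and control over time had 3 higher and 18 lower. Under the same setting Jmjd2a over time had 0 higher, Jmjd2c over time 2 higher and 0 lower, and the difference between days 20 higher and 1 lower for Jmjd2a and 17 higher and 2 lower for Jmjd2c. With array weights 24 were lower under Jmjd2a and 4 higher under Jmjd2c at day 1, 3 lower under Jmjd2a at day 3, 4 higher in control over time, 34 higher and 2 lower under Jmjd2a over time and 29 higher under Jmjd2c over time. The weights were 0.278 for the day 3 controls and 0.946 to 1.566 elsewhere. At an adjusted p under 0.10, Jmjd2a over time had 24 higher and 1 lower, Jmjd2c over time 24 higher, and the difference between days 7 lower for Jmjd2a.

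Asking for 1.5-fold as well left 0 higher and 0 lower at day 1 under each label, 4 higher and 1 lower under Jmjd2a and 2 higher and 1 lower under Jmjd2c at day 3, and 1 higher and 5 lower in control over time. It left 0 higher under Jmjd2a and 0 higher and 1 lower under Jmjd2c over time, and 9 higher and 1 lower for each label in the difference between days. Fitting only the arrays of the groups compared gave 4 higher under Jmjd2c at day 1, 12 higher and 3 lower under Jmjd2a and 13 higher and 2 lower under Jmjd2c at day 3, and 5 higher and 16 lower in control over time. It gave 7 higher and 1 lower under Jmjd2a and 26 higher under Jmjd2c over time, and 1 lower between the labels at day 3. Counting every probe set of a gene gave 4 higher and 21 lower under Jmjd2a and 6 higher and 32 lower under Jmjd2c at day 1, 53 higher and 9 lower under Jmjd2a and 40 higher and 8 lower under Jmjd2c at day 3, and 13 higher and 47 lower in control over time. It gave 22 and 27 higher over time under Jmjd2a and Jmjd2c, and 64 higher and 6 lower and 57 higher and 7 lower in the difference between days.

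With the replicate block, 14 were lower under Jmjd2a at day 1 and 28 higher at day 3, and all 147 named calls were kept. Of these, 134 were kept with quantile normalization, 137 with centring, 129 with array weights and 74 with a prior variance without trend.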
